A study of Rattus norvegicus with 12 samples.

Results

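Rat liver at the cirrhosis stage of diethylnitrosamine (DEN) treatment was compared with control liver. DEN is a nitrosamine that liver enzymes convert into a DNA-alkylating agent. The members of the comparison are the 6 arrays whose sample group label reads cirrhosis stage or normal control, 3 of each, out of 12 arrays in the series. All 14217 genes with a probe set of their own were described. Rats of both groups were adult male Sprague-Dawley animals. Those of the cirrhosis stage had been given DEN at 70 mg/kg into the peritoneum weekly over a schedule of 10 weeks, and were killed at weeks 13 to 14. Control rats received distilled water instead, and when they were killed is not stated in the labels, so that treatment, age and time since injection cannot be told apart. A hepatitis stage group on the same DEN schedule, killed at week 5, is used below as a second reference, also with 3 arrays. The labels do not state whether weeks count from the first or the last injection. Between hepatitis and cirrhosis, stage, age, dose received and time since injection cannot be told apart. The remaining 3 arrays hold hepatocellular carcinoma (HCC) of weeks 23 to 24. They enter 1 alternative fit and the choice of 1 probe set per gene, and are quoted for alpha-fetoprotein. The labels do not tie arrays to individual rats. A p-value here therefore reflects the spread between samples, which may be technical. In whole tissue, fewer cells of a type and less RNA per cell cannot be told apart.

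Hepatocytes, the main parenchymal cells of liver, make plasma proteins and carry out most of the body's xenobiotic metabolism, in which cytochrome P450 enzymes oxidise a compound and transferases then conjugate it. The transcription factor NRF2 (Nfe2l2) turns on conjugating and antioxidant enzymes when electrophiles accumulate. A separate programme, driven by the transcription factor ATF4, raises amino acid synthesis, amino acid import and tRNA charging when amino acids are scarce. In cirrhosis, as a textbook matter, collagen scar surrounds nodules of hepatocytes and ductular cells multiply, and in the rat DEN model clonal foci of altered hepatocytes appear before tumours do.

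Intensities were comparable on the 6 arrays, with medians of 28.69 to 29.37, and 34.9% to 35.8% of values lay under 16. Cirrhosis arrays correlated with each other at 0.9961 to 0.9968 across genes and control arrays at 0.988 to 0.992, where genes are not independent replicates. The control array of replicate 3 stood apart in its mean level of 14 macrophage and Kupffer cell markers (9.34 on the log2 scale, against 8.34 and 8.19 on the other control arrays and 8.77 to 8.84 in cirrhosis). That of replicate 2 stood apart in 11 skeletal muscle markers (7.78, against 5.18 and 5.35, and 5.21 to 5.26 in cirrhosis). For Gapdh, the array carries control probe sets at either end of the transcript, and the excess of the 3′ over the 5′ signal tracks shortened RNA. It was 0.87 to 1.02 (log2) in control and 0.42 to 0.56 in cirrhosis. For beta-actin the same excess was 2.41 to 2.69 in control and 2.22 to 2.42 in cirrhosis. Both excesses thus tended lower in cirrhosis. The Gapdh values did not overlap, and those of beta-actin overlapped only at 2.41 (control replicate 2) and 2.42 (cirrhosis replicate 3). The part of either in the results was not tested.

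The tissue label fitted liver: hepatocyte markers averaged 12.37 to 12.46 in control and 12.44 to 12.47 in cirrhosis (log2 of intensity + 16, 16 measured), and 1 of the 16 was called in each direction. Albumin (Alb) read 14702, 14732 and 15006 in control and 14857, 14296 and 14523 in cirrhosis. These are the highest values on each of the 6 arrays, where the signal may be at its ceiling, so no difference is read from them. Markers of scar gave no single direction. Of 30 matrix and myofibroblast markers 8 rose and 6 fell, with a median of 0.04. The fibrillar collagen Col1a1 read 203, 321 and 187 in control and 136, 136 and 181 in cirrhosis (-0.58 ± 0.21, adjusted p = 0.11). Neither Col3a1 (-0.02 ± 0.10, adjusted p = 0.921) nor smooth muscle actin Acta2 (0.11 ± 0.07, adjusted p = 0.372) was called. The stage is therefore used here as its label, and no histology was used.

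Across the liver transcriptome many genes moved by a little and few by a lot. With limma on log2(intensity + 16), fitted to the 6 arrays, 2682 of 14217 genes passed an adjusted p of 0.05 (Benjamini-Hochberg) and are called below, which is 18.9% of all genes. Of these 1269 (8.93%) were higher and 1413 (9.94%) lower in cirrhosis. The median absolute difference among called genes was 0.42 (log2), and 1979 of them differed by under 1.5-fold. At least 2-fold changes were called for 226 genes (1.59%), 125 higher (0.879%) and 101 lower (0.71%), and at least 4-fold changes for 22 higher and 15 lower. The 3 arrays of each group did not overlap for 5315 genes (37.4%), among them all 2682 called genes. The median difference of all genes was 0.0. In a fit that also takes in the HCC arrays 474 genes were called. That fit uses 1 spread per gene for all groups. The median SD per gene was 0.2074 on the HCC arrays, against 0.0857 in control and 0.0724 in cirrhosis. Leaving out cirrhosis replicate 1, 2 or 3 or control replicate 2 gave 1573, 1434, 1630 and 1746 calls, and leaving out control replicate 3, the array high in macrophage markers, gave 3277. Among calls of at least 2-fold, 109 of the 125 rises and 85 of the 101 falls held whichever array was left out, and 64 and 66 held with all 12 arrays.

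**Figure D1:**
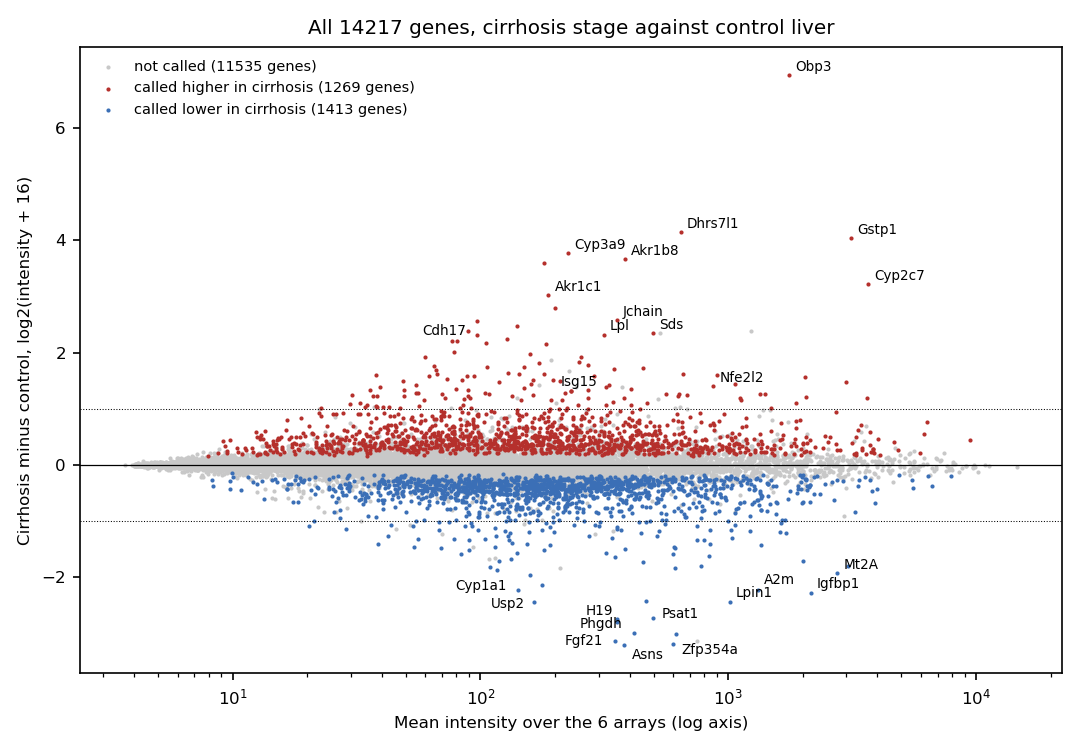
Each point is 1 of 14217 genes, with its mean intensity over the 3 control and 3 cirrhosis arrays (log axis) against the cirrhosis minus control difference of log2(intensity + 16). The 1269 genes called higher are red, the 1413 called lower are blue and the rest grey; dotted lines mark 2-fold, and Obp3 at 6.93 lies above every other gene.

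The largest rise was that of Obp3, a lipocalin of the urinary protein and odorant binding family. It read 9.92, 12.5 and 10.6 on the control arrays and 4003, 1917 and 4611 on the cirrhosis arrays. From below 16 on every control array it rose by 6.93 ± 0.31 (log2, adjusted p = 0.000199). Mup5, a major urinary protein next to Obp3 in the gene order of RefSeq, read 15.1, 13 and 13.9 in control and 367, 297 and 379 in cirrhosis (3.59 ± 0.09, adjusted p = 4.51e-05). No other genes went from under 16 on all 3 arrays of a group to over 64 on all 3 of the other. The relative Rup2 read 6706, 8440 and 8961 in control and 11078, 10449 and 11030 in cirrhosis (0.44 ± 0.11, adjusted p = 0.0363), a call that was lost when control replicate 2 or any 1 cirrhosis array was left out. These genes have near-identical copies, so which copy each probe set reads is uncertain. Of 12 measured lipocalins 3 rose and 1, the sphingosine-1-phosphate carrier Apom, fell (-0.49 ± 0.09), and their median was 0.02.

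Of 28 measured markers of preneoplastic liver foci 20 rose, 2 fell and 6 were not called, 78.6% called against 18.9% of all genes, with a median difference of 0.63. The placental-form glutathione transferase Gstp1, the classic marker of such foci, read 350, 354 and 331 in control and 5276, 6919 and 5519 in cirrhosis. Each cirrhosis array was thus more than 10 times any control array, and the rise was 4.03 ± 0.11 (log2, adjusted p = 4.51e-05). Gamma-glutamyl transferase Ggt1, which cleaves extracellular glutathione, read 44.2, 31.4 and 30.6 and then 115, 176 and 108 (1.52 ± 0.19, adjusted p = 0.00375). Alpha-fetoprotein (Afp), a fetal plasma protein, read 128, 124 and 89.4 and then 199, 250 and 198 (0.84 ± 0.15, adjusted p = 0.0113). Its level in cirrhosis lay far under the 576 to 9199 of the HCC arrays. The imprinted fetal RNA H19 went the other way, from 1170, 392 and 366 to 70, 69.3 and 69 (-2.74 ± 0.42, adjusted p = 0.00753). In the fit of all 12 arrays 8 of the 20 rises were called. Several of these markers, Gstp1 included, are long known in this model, so the list is not independent of the treatment.

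Among enzymes that conjugate or reduce electrophiles, rises outnumbered falls. Of 21 glutathione transferases 8 rose and 1 fell (42.9% called against 18.9% of all genes, median 0.12). Of 34 genes of the NRF2 and glutathione list 15 rose and 5 fell (58.8% called, median 0.19). Of 36 aldo-keto reductases and aldehyde dehydrogenases 9 rose, 3 fell and 24 were not called (33.3% called, median 0.14). The promoter of Gstp1 is shown because it holds the antioxidant-type letters TGACNNNGC (capitals) beginning 61 bases before the start, in a window on the minus strand of GRCr8 (RefSeq):
Gstp1, chr1:210769728-210769796: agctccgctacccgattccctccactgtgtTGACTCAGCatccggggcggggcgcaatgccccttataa
Gclm, the modifier subunit of glutathione synthesis, which rose by 0.61 ± 0.05, carries them on the opposite strand, beginning 172 bases before its start, in a window on the plus strand:
Gclm, chr2:213031933-213032001: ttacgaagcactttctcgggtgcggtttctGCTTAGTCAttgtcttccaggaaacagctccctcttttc
Windows of 250 bases before to 50 after the start were searched on both strands. These letters occurred in 14.4% of 11733 such windows of measured genes, in 7 of 28 of the NRF2 list (25%) and in 7 of 18 glutathione transferases (38.9%). Of the members called higher 4 of 12 (33.3%) and 2 of 8 (25%) held them. Nqo1, Srxn1, Ggt1, Akr1b8, Akr7a3 and Gstm3 have no match in this window. Among genes called at least 2-fold higher the share was 12.8%, near that of all genes. A match is a description of letters and not a bound site.

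Nfe2l2 itself, which encodes NRF2, read 490, 454 and 465 in control and 1192, 1281 and 1351 in cirrhosis (1.41 ± 0.06, adjusted p = 0.000199). Sulfiredoxin (Srxn1), which repairs oxidised peroxiredoxins, rose from 193, 155 and 117 to 494, 617 and 501 (1.71 ± 0.17, adjusted p = 0.0021). The quinone reductase Nqo1 was low on control replicate 1, with 231, 603 and 557 in control and 1327, 1417 and 1257 in cirrhosis (1.60 ± 0.34, adjusted p = 0.0218), and its call was lost without any 1 cirrhosis array. Ptgr1, which reduces alkenals, rose by 1.26 ± 0.11. Among the falls was malic enzyme Me1, a source of NADPH that is also a lipogenic gene, which went from 880, 967 and 830 to 265, 377 and 310 (-1.46 ± 0.13, adjusted p = 0.00133). The other 4 falls ran from -0.26 to -0.40. Of the 15 rises 9 held without cirrhosis replicate 1, 9 without replicate 2, and 4 with all 12 arrays.

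Among the aldo-keto reductases, which turn reactive aldehydes and ketones into alcohols, Akr1b8 read 25.3, 33.9 and 48.6 in control and 467, 1297 and 418 in cirrhosis (3.67 ± 0.43, adjusted p = 0.00328). The highest array, cirrhosis replicate 2, was not the highest for Akr1c1, which read 19.1, 35.4 and 13.6 and then 184, 192 and 683 (3.03 ± 0.50, adjusted p = 0.00982). Akr1c1, AKR1C3l1 and Akr1c13 stand beside each other among the measured genes in RefSeq order, and rose by 3.03, 1.78 and 1.23. With Obp3 and Mup5 they were the 2 runs of neighbouring genes called at least 2-fold the same way, over 14198 genes placed. How many runs a random gene order would give was not computed. AKR1C3l1 was named after its value was seen, and close sequence within the cluster leaves the assignment of reads to copies uncertain. The aflatoxin aldehyde reductase Akr7a3 rose from 1401, 1486 and 1867 to 4181, 4716 and 4244 (1.47 ± 0.11, adjusted p = 0.000939). Aldh3a1, a dehydrogenase of aromatic and medium-chain aldehydes, rose from 17.1, 15.2 and 18 to 151, 152 and 106 (2.20 ± 0.13, adjusted p = 0.000461). Both also exceeded the hepatitis stage, where Aldh3a1 read 23.4, 19.8 and 21.6 (2.0 higher in cirrhosis, adjusted p = 0.00876) and Akr7a3 1744, 1044 and 882 (1.89 higher, adjusted p = 0.023). Aldh18a1, which makes the precursor of proline, fell by 1.16 on the log2 scale (SE 0.14, adjusted p = 0.00372). The mu-class transferases formed 1 of 7 symbol families, out of 475 with at least 5 measured members, whose called share was at least 3 times that of all genes. Among 475 mostly small families some would reach such a share by chance, and how many was not computed. Of 7 Gstm genes 4 rose, namely Gstm3 (1.93 ± 0.15), Gstm2 (0.95 ± 0.11), Gstm1 (0.56 ± 0.06) and Gstm4 (0.54).

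Genes of amino acid supply held some of the largest falls in the liver. Of 32 measured genes of the amino acid starvation response 18 fell and 2 rose, 62.5% called against 18.9% of all genes, with a median of -0.57. Of 19 cytosolic tRNA synthetases 11 fell and 0 rose (57.9% called, median -0.38), and of 26 serine and one-carbon genes 9 fell and 2 rose (42.3% called, median -0.12). Asparagine synthetase Asns read 759, 692 and 639 in control and 52.4, 70.8 and 62.8 in cirrhosis. This was the largest called fall of at least 2-fold, at -3.20 ± 0.10 (log2, adjusted p = 5.86e-05). Phgdh, the first enzyme of serine synthesis, read 811, 685 and 760 and then 74.1, 77.1 and 93.1 (-2.98 ± 0.10, adjusted p = 5.86e-05). Psat1, the next enzyme, read 981, 846 and 798 and then 112, 131 and 112 (-2.73 ± 0.09, adjusted p = 7.44e-05). Psph, the last step, went from 278, 298 and 265 to 127, 116 and 100 (-1.19 ± 0.09, adjusted p = 0.000818). All 3 enzymes of the pathway from glycolysis to serine were thus called lower. Serine dehydratase Sds, which breaks serine down to pyruvate, rose from 125, 150 and 181 to 778, 1014 and 726 (2.35 ± 0.16, adjusted p = 0.000722). Sds was also high and scattered at the hepatitis stage, with 2097, 327 and 3280, and its call was lost in the fits that take in those arrays.

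One-carbon units made from serine are used in mitochondria by Mthfd2, which read 213, 224 and 143 in control and 34.8, 51.3 and 37.4 in cirrhosis (-1.86 ± 0.18, adjusted p = 0.00193). The mitochondrial folate carrier Slc25a32 fell by 1.01 on the log2 scale (SE 0.19, adjusted p = 0.0158), a call lost without any 1 cirrhosis array. Of the stress-response genes, the liver hormone Fgf21, which signals nutrient stress to other organs, read 967, 697 and 272 and then 57.2, 56.4 and 40.5 (-3.13 ± 0.43, adjusted p = 0.00532). Control replicate 3 was the lowest of the controls for Fgf21, yet above each cirrhosis array. Chac1, which degrades glutathione, read 419, 241 and 179 and then 65.9, 96.7 and 86 (-1.51 ± 0.29, adjusted p = 0.0164), and its call was lost without cirrhosis replicate 1 or 3. Trib3, a pseudokinase that restrains ATF4, fell by 1.06 on the log2 scale (SE 0.24, adjusted p = 0.0272). Nupr1, a small stress-induced nuclear protein, went from 1088, 1023 and 1103 to 311, 456 and 496 (-1.34 ± 0.16, adjusted p = 0.00369). Slc3a2, the shared heavy chain of amino acid exchangers, went from 1267, 1189 and 1066 to 497, 533 and 530 (-1.15 ± 0.07, adjusted p = 0.000575). The rises in the list were the neutral amino acid transporters Slc1a4 (0.71) and Slc1a5 (0.31). Atf4 itself was not called. Of the 18 falls 10 held without cirrhosis replicate 3 and 10 with all 12 arrays.

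Synthetases charge tRNAs with amino acids. The largest fall was that of the cysteine enzyme Cars1, from 498, 552 and 432 to 221, 213 and 229 (-1.10 ± 0.09, adjusted p = 0.00109). Yars1 (tyrosine) fell by 0.97, Iars1 (isoleucine) by 0.84, Gars1 (glycine) by 0.81, Eprs1 (glutamate and proline) by 0.81 and Lars1 (leucine) by 0.74 on the log2 scale. The methionine enzyme Mars1 fell by 0.73. Glutamine, arginine, threonine and histidine synthetases were among the 8 of 19 not called. Of the 11 falls 9 held whichever array was left out and 7 held with all 12 arrays. The hepatitis stage was low as well: the mean of the 19 synthetases was 8.76 to 8.82 in control, 8.14 to 8.23 at the hepatitis stage and 8.27 to 8.33 in cirrhosis (log2 of intensity + 16). For the starvation list the means were 7.81 to 8.20, 7.16 to 7.42 and 7.30 to 7.36. Phgdh was an exception in level, with 39.2, 24 and 24.5 at the hepatitis stage, 1.12 below cirrhosis (log2, adjusted p = 0.0236).

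Promoter windows of members that fell are shown because they hold the letters of the amino acid response element that ATF4 and its partners read, TGATGNAA, in capitals and, in each, on the opposite strand to the gene. Windows run 5′ to 3′ along the gene and end at or before its annotated start (RefSeq, GRCr8; Chac1 on the plus strand, the others on the minus strand):
Chac1, chr3:126795934-126796001: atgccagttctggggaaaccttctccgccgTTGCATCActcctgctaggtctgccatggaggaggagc
Trib3, chr3:161275534-161275584: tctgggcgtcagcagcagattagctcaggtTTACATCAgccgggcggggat
Fgf21, chr1:105221482-105221549: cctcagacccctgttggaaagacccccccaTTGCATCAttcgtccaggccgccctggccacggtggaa
Nupr1, chr1:190645919-190645986: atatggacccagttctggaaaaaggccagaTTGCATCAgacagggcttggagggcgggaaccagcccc
Iars1, chr17:15193653-15193706: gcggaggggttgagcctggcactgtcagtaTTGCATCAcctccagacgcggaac
Mars1, chr7:65023754-65023800: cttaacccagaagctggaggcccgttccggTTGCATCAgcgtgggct
The letters begin 167 bases before the start in Chac1, 21 in Trib3, 143 in Fgf21, 55 in Nupr1, 24 in Iars1 and 17 in Mars1. Among all 11733 windows 2.21% hold them, against 9 of 29 in the starvation list (31%) and 7 of 17 among the synthetases (41.2%). Of genes called at least 2-fold lower 6 of 81 (7.41%) hold them, and of those called lower at any size 2.5%. Asns, Phgdh, Psat1, Psph and Mthfd2 have no match in this window, which says only that these letters are not there.

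**Figure D2:**
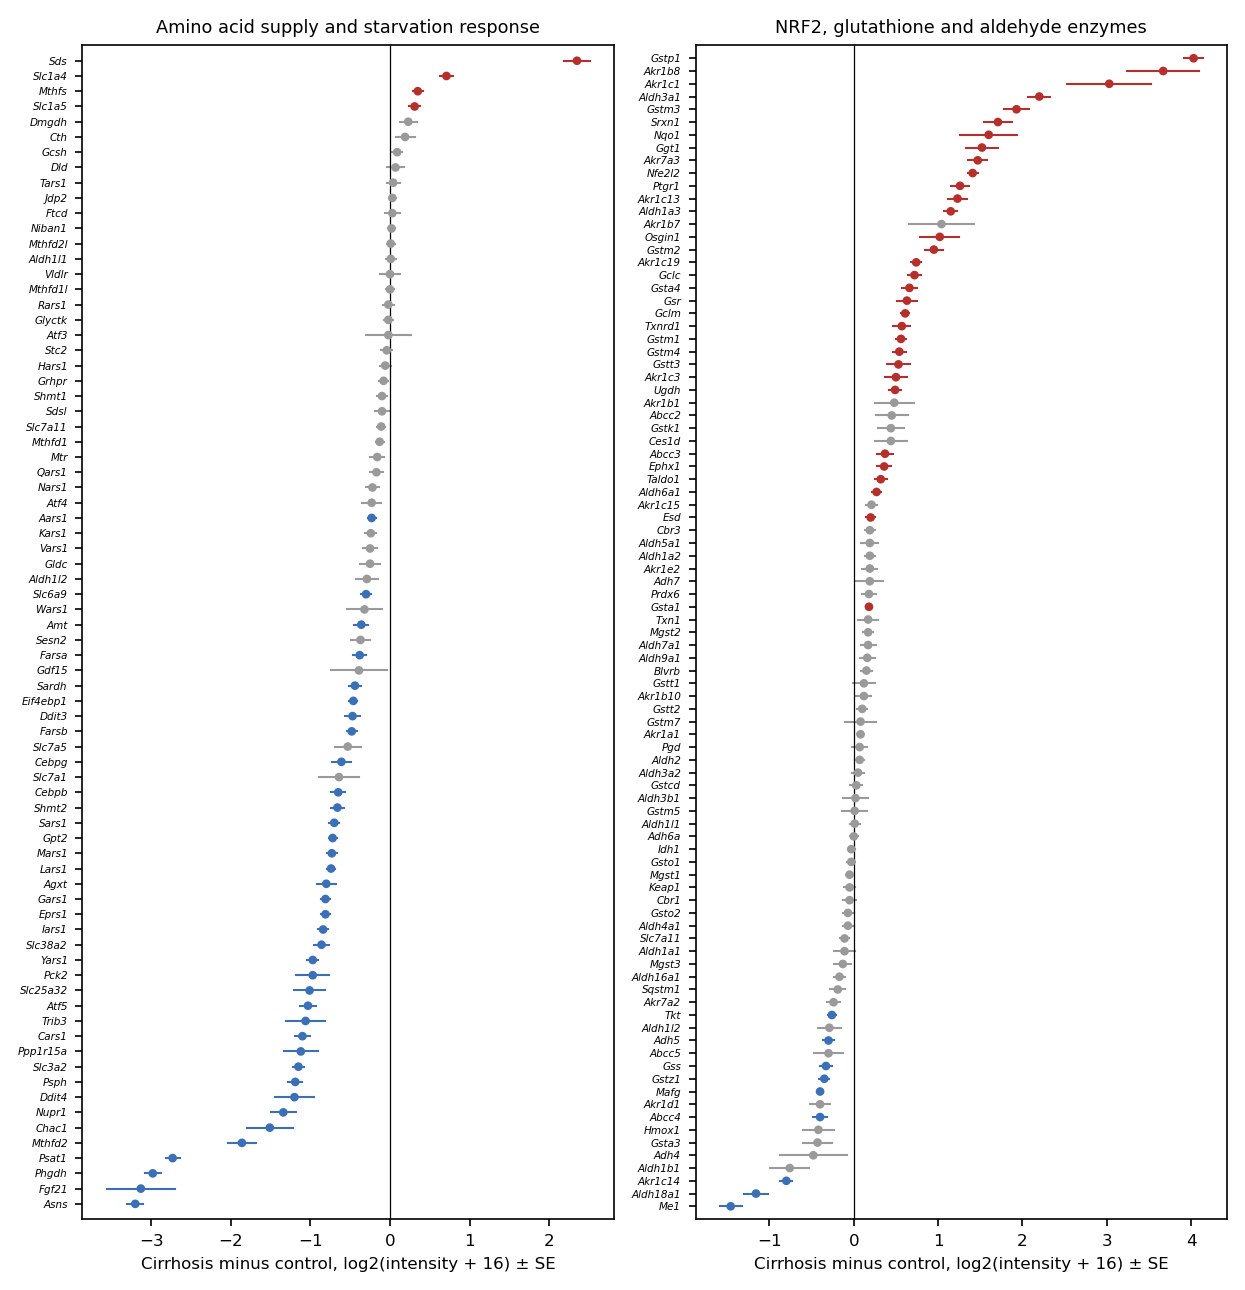
Cirrhosis minus control difference of log2(intensity + 16) with its standard error for each measured member of the amino acid lists (left) and of the NRF2, glutathione transferase and aldehyde enzyme lists (right), red where called higher, blue where called lower and grey where not called. Asns at -3.20 and Gstp1 at 4.03 are the extremes. Called falls outnumber called rises on the left and the reverse holds on the right, where many members are not called.

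Of 26 glucocorticoid target genes 13 fell and 3 rose (61.5% called against 18.9% of all genes, median -0.41). The insulin-like growth factor binding protein Igfbp1, which insulin represses and glucocorticoids induce, read 3021, 4117 and 3571 in control and 880, 816 and 525 in cirrhosis (-2.27 ± 0.21, adjusted p = 0.00154). Metallothionein Mt2A, a binder of zinc and copper, read 4614, 3756 and 4754 and then 1029, 1284 and 1119 (-1.92 ± 0.12, adjusted p = 0.000545). The chaperone Fkbp5, a feedback inhibitor of the glucocorticoid receptor, went from 187, 202 and 306 to 81.8, 76.2 and 70.8 (-1.40 ± 0.17, adjusted p = 0.00384). Ddit4, a brake on mTOR that also stands in the starvation list, fell by 1.20 on the log2 scale (adjusted p = 0.0178), and its call was lost without control replicate 2 or cirrhosis replicate 1 or 3. Oestrogen sulfotransferase Sult1e1 (1.19 ± 0.25, call lost without any 1 cirrhosis array) and the pyruvate dehydrogenase kinase Pdk4 (1.10 ± 0.14) rose, though both are induced by glucocorticoids as background knowledge. Of the 13 falls 10 held whichever array was left out and 4 with all 12 arrays.

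In the insulin, glucagon and insulin-like growth factor axis 6 of 35 genes rose and 9 fell (42.9% called, median -0.11), of which 3 and 4 held without cirrhosis replicate 1 or 2, 5 and 4 without replicate 3, and 4 and 5 without control replicate 1. Igfbp2 fell from 475, 207 and 192 to 100, 103 and 67.3 (-1.43 ± 0.34, adjusted p = 0.0317), a call lost without control replicate 2 or any 1 cirrhosis array. Grb10, an adaptor that inhibits the insulin receptor, fell by 1.07 on the log2 scale. Gckr, the regulator of glucokinase, fell by 0.81 in the same units, with 4 single arrays whose removal ended the call. Igfbp7 rose by 0.78 ± 0.06. Growth hormone's main product Igf1 read 4252, 4741 and 3999 in control and 3917, 4120 and 4129 in cirrhosis (-0.09 ± 0.07, adjusted p = 0.456). The Igfbp family was among the 7 symbol families above, with 2 rises and 2 falls in 7 genes.

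Genes of lipid storage moved in both directions. Of 41 lipid droplet and triglyceride genes 10 fell and 3 rose (31.7% called, median -0.13). Lipin 1 (Lpin1), the phosphatase that makes diacylglycerol, read 1593, 1746 and 1822 in control and 294, 291 and 335 in cirrhosis (-2.43 ± 0.08, adjusted p = 5.86e-05). Its relative Lpin2 fell by 1.01 and Dgat2, the last enzyme of triglyceride synthesis, by 0.91 on the log2 scale. Lipoprotein lipase Lpl, which adult liver normally keeps low, rose from 83.7, 135 and 71.9 to 545, 569 and 486 (2.32 ± 0.20, adjusted p = 0.00115). Cidea, which enlarges lipid droplets, went from 125, 82 and 91.2 to 538, 344 and 325 (1.84 ± 0.22, adjusted p = 0.00338), and Pnpla3 rose by 1.34 ± 0.20. The Pnpla lipase family had 1 rise and 3 falls in 7 genes. Of the 10 falls 6 held without cirrhosis replicate 2 or 3 and 2 with all 12 arrays, while each of the 3 rises held whichever array was left out.

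Cytochrome P450 genes were split. Of 57 measured 6 rose and 11 fell (29.8% called, median -0.04), of the rises 3 held without any 1 cirrhosis array, and of the falls 6 held without cirrhosis replicate 2 or 3. With all 12 arrays 1 rise and 2 falls were called. Cyp3a9, a steroid hydroxylase, read 17.2, 15.9 and 17.2 in control and 489, 365 and 449 in cirrhosis (3.77 ± 0.10, adjusted p = 4.51e-05). Cyp2c7, a retinoid and steroid oxidase, read 168, 1658 and 1032 and then 6726, 6420 and 6049 (3.22 ± 0.76, adjusted p = 0.0312). Controls of Cyp2c7 differed widely among themselves and its call was lost without any 1 cirrhosis array. The fatty acid hydroxylase Cyp4a8 rose from 26.5, 25.9 and 31.6 to 156, 177 and 215 (2.17 ± 0.12, adjusted p = 0.000368), and at the hepatitis stage read 10.5, 28.5 and 38.6. Cyp17a1, which makes androgens from progestins, fell from 852, 1043 and 498 to 154, 150 and 93.8 (-2.42 ± 0.30, adjusted p = 0.00375). Cyp1a1, the sentinel target of the aryl hydrocarbon receptor, fell from 254, 151 and 332 to 34.8, 44.6 and 33.3 (-2.23 ± 0.26, adjusted p = 0.00317). Cyp7a1, the rate-limiting enzyme of bile acid synthesis, fell from 3167, 3214 and 2728 to 1446, 642 and 823 (-1.71 ± 0.28, adjusted p = 0.00916). The bile acid-induced repressor Nr0b2 (SHP) was lower as well, from 801, 1030 and 885 to 297, 361 and 294 (-1.47 ± 0.12, adjusted p = 0.00096). The male-predominant Cyp2c11 was not called, with 1861, 3551 and 2953 and then 4511, 3907 and 4795 (0.70 ± 0.23, adjusted p = 0.0846).

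The nuclear receptors that sense xenobiotics, Nr1i2 (PXR) and Nr1i3 (CAR), were lower by 0.74 and 0.75 on the log2 scale. The call of Nr1i3 was lost on leaving out any 1 of 5 arrays. Of 42 nuclear receptors 8 fell and 3 rose (26.2% called, median 0.00), 4 of the falls holding without cirrhosis replicate 1 or 3, and 5 without cirrhosis replicate 2 or control replicate 3. In steroid and retinoid metabolism 7 of 43 genes rose and 7 fell (32.6% called, median -0.04). The sterol dehydrogenase Hsd17b6 rose from 993, 1017 and 1064 to 3004, 3062 and 3072 (1.56 ± 0.05, adjusted p = 5.86e-05), with almost no scatter between arrays. Hsd3b5, a ketosteroid reductase, rose by 1.10 ± 0.08. Dhrs7l1, a short-chain dehydrogenase in no list, had the largest rise after Obp3: it read 19.6, 64.6 and 94.2 in control and 1212, 866 and 1604 in cirrhosis (4.15 ± 0.43, adjusted p = 0.00235).

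Among interferon-induced genes, rises outnumbered falls. Of 45 genes of interferon response and antigen processing 17 rose and 2 fell (42.2% called against 18.9% of all genes), with a median of 0.43. The antiviral 2′-5′ oligoadenylate synthetase Oas1a read 71.8, 51.4 and 58.5 in control and 280, 221 and 217 in cirrhosis (1.74 ± 0.13, adjusted p = 0.000817). Mx2, a dynamin-like antiviral GTPase, went from 24.9, 24.2 and 19.3 to 124, 107 and 98 (1.69 ± 0.10, adjusted p = 0.000417). The ubiquitin-like modifier Isg15 went from 104, 87.4 and 90.2 to 316, 310 and 267 (1.51 ± 0.09, adjusted p = 0.000428). Its protease Usp18 rose by 1.33 ± 0.13, the transcription factor Irf7 by 1.32 ± 0.17 and the chaperone Rtp4 by 1.35 ± 0.18. Each of these 6 genes kept its call against control under each of 16 alternative settings. Oas1a, Mx2, Isg15 and Usp18 were also above the hepatitis stage, by 0.99, 1.44, 0.65 and 1.24 (adjusted p = 0.0431, 0.023, 0.0466 and 0.0324). Calls against the hepatitis stage were less stable. Of the named genes 28 were called against it, but 2, 1 and 4 without cirrhosis replicate 1, 2 or 3.

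Signals of immune cells moved with the list on 1 control array. The mean of the 45 genes was 7.27, 7.15 and 7.75 on control arrays 1 to 3 and 8.0, 7.86 and 7.84 in cirrhosis, so that control replicate 3, high in macrophage markers, came near the cirrhosis arrays. All 17 rises held without that array, 11 held without cirrhosis replicate 1, and 11 with all 12 arrays. None of the 14 macrophage markers was called by limma at an adjusted p under 0.05, but without control replicate 3 the macrophage protein Cd68 was called, 0.79 higher in cirrhosis (0.38 with all 6 arrays), and the part of those cells in the interferon genes was not tested. Promoter windows of 3 risers are shown for the letters of the interferon-stimulated response element, GAAA, any 2 bases and GAAA, in capitals (RefSeq, GRCr8):
Oas1a, plus strand, chr12:41330395-41330465: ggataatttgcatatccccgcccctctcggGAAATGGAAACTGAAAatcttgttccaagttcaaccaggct
Irf7, minus strand, chr1:205800053-205800122: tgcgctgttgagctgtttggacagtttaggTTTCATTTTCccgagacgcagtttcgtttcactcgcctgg
Ifit3, plus strand, chr1:241527252-241527321: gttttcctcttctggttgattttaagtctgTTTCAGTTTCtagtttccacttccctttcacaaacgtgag
In Oas1a the element occurs in 2 overlapping copies beginning 41 bases before the start, in Irf7 on the opposite strand from 69 bases and in Ifit3 likewise from 44 bases. Of all windows 2.99% hold it, against 22 of 35 in the list (62.9%), 6 of 11 among its called risers (54.5%) and 6.98% of genes called at least 2-fold higher. Isg15, Mx2, Usp18 and Rtp4 had no window to search, and Oasl and Mx1 have no match.

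**Figure D3:**
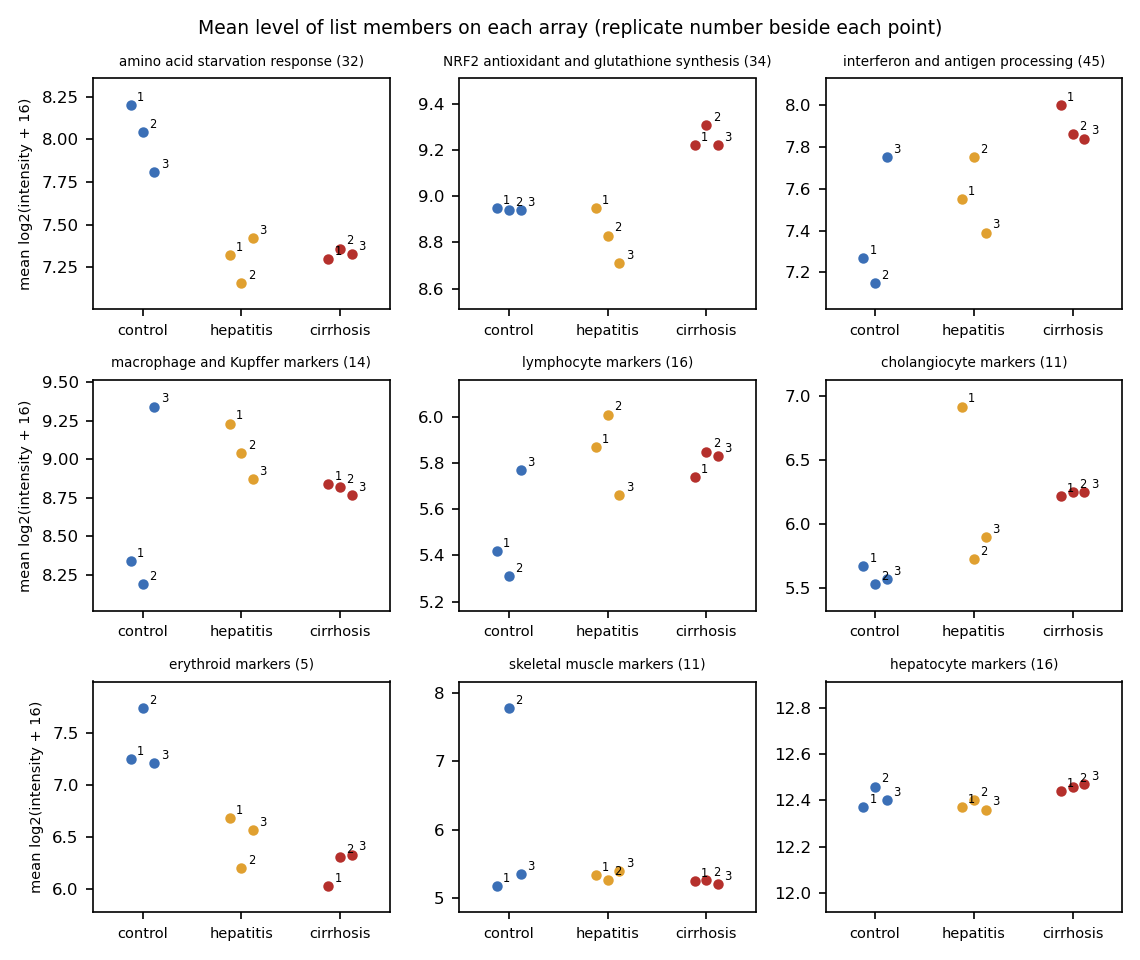
Mean log2(intensity + 16) of the measured members of 9 lists (number in brackets) on each control, hepatitis and cirrhosis array, with the replicate number beside each point. The starvation list lies at 7.30 to 7.36 in cirrhosis against 7.81 to 8.20 in control, control replicate 3 is high in macrophage, lymphocyte and interferon genes, and control replicate 2 is high in muscle genes.

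Among genes of epithelial contact and of the cell cortex, called genes were mostly higher, though most members were not called. Of 44 junction and adhesion genes 16 rose and 2 fell (40.9% called against 18.9% of all genes, median 0.19), of 26 annexins and S100 proteins 10 rose and 0 fell (38.5%, median 0.19), and of 43 tubulin and actin cytoskeleton genes 13 rose and 0 fell (30.2%, median 0.21). Cdh17, a cadherin of intestine, read 16, 20.4 and 26.1 in control and 165, 116 and 235 in cirrhosis (2.31 ± 0.23, adjusted p = 0.0021). The progenitor surface protein Cd24 went from 21.9, 26 and 20.5 to 97.3, 107 and 98.2 (1.59 ± 0.07, adjusted p = 0.000195). Epcam, an adhesion molecule of bile ducts and progenitors, went from 131, 144 and 131 to 411, 462 and 441 (1.58 ± 0.06, adjusted p = 0.000142). Claudin 2 (Cldn2), a pore-forming tight junction protein, rose by 1.06 ± 0.16 and Jam3 by 1.02 ± 0.07. The phospholipid-binding annexins Anxa5 and Anxa2 rose by 1.24 ± 0.07 and 1.20 ± 0.09. Ezrin (Ezr), which ties membrane to actin, rose by 0.94 ± 0.11 and the keratins Krt8 and Krt19 by 0.46 ± 0.05 and 0.81 ± 0.16. The call of Krt19 was lost without control replicate 2 or cirrhosis replicate 2 or 3. Markers of cholangiocytes, the bile duct cells that share several of these genes, moved with them: 8 of 11 rose and 0 fell (median 0.61), and their mean was 5.53 to 5.67 in control and 6.22 to 6.25 in cirrhosis. How far those cells account for the adhesion genes was not tested. With all 12 arrays 0 of the 16 junction rises, 0 of the 10 annexin and S100 rises, 1 of the 13 cytoskeletal rises and 0 of the 8 cholangiocyte rises were called. Leaving out cirrhosis replicate 1 or 2 left 7 of the 13 cytoskeletal rises, and leaving out control replicate 1 or 2 or cirrhosis replicate 3 left 8. Of the 8 cholangiocyte rises 4 held without cirrhosis replicate 2, and 5 without control replicate 2 or cirrhosis replicate 3.

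Scar and other non-parenchymal genes changed selectively. Lysyl oxidase Lox, which crosslinks collagen, read 50.7, 65.4 and 46.7 in control and 249, 150 and 212 in cirrhosis (1.63 ± 0.19, adjusted p = 0.00302). The small proteoglycan decorin (Dcn) went from 132, 234 and 158 to 407, 501 and 544 (1.42 ± 0.20, adjusted p = 0.0062). Loxl1 rose by 0.90 ± 0.11 and the gelatinase Mmp2 by 0.69 ± 0.09. Timp1, an inhibitor of matrix proteases, rose by 0.41 ± 0.09 (adjusted p = 0.0267), a call lost without cirrhosis replicate 1 or 2. Col5a1 fell by 0.83 and the stellate cell protein Reln by 0.81 on the log2 scale. With all 12 arrays 0 of the 8 matrix rises and 1 of the 6 falls were called. Of the mast cell genes, the chymase Mcpt1 went from 26, 42.8 and 51.1 to 233, 141 and 146 (1.75 ± 0.23, adjusted p = 0.00495) and carboxypeptidase Cpa3 from 23.6, 38.4 and 26.1 to 166, 90.1 and 96.3 (1.53 ± 0.23, adjusted p = 0.0069). At the hepatitis stage Cpa3 read 50.4, 57.1 and 25.1. Of 15 mast cell and neutrophil markers 4 rose, 0 fell and 11 were not called (26.7% called against 18.9% of all genes, median 0.12). The other rises were Fcer1a and S100a9, whose calls were lost on leaving out any 1 of 5 and of 3 arrays. Of the 4 rises 2 held without control replicate 1 or 2. Among the largest rises were Jchain, the joining chain of polymeric antibodies, at 191, 45.9 and 72.5 and then 579, 608 and 631 (2.58 ± 0.41, adjusted p = 0.00869) and the immunoglobulin gene Ighl2 at 83.3, 15.7 and 28.5 and then 253, 460 and 356 (2.80 ± 0.43, adjusted p = 0.00759). Both were highest among controls on replicate 1. Of 16 lymphocyte markers 3 rose (18.8% called), near the 18.9% of all genes.

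Scavenger receptors of sinusoidal endothelium were lower, Stab2 going from 630, 507 and 631 to 312, 281 and 257 (-1.01 ± 0.11, adjusted p = 0.00243) and Stab1 falling by 0.90. The large-vessel protein Vwf rose by 0.47 ± 0.07. Of 14 endothelial markers 4 fell and 2 rose (42.9% called, median -0.19), and 1 of the rises and 2 of the falls held whichever array was left out. Of 5 erythroid markers 4 fell (80%, median -1.31), and each held in every alternative: beta globin Hbb read 3994, 5984 and 4074 and then 804, 1764 and 1620 (-1.79 ± 0.32, adjusted p = 0.0125), and the erythroid haem enzyme Alas2 161, 242 and 137 and then 33, 40.3 and 42.5 (-1.81 ± 0.19, adjusted p = 0.00236). Whether less blood was left in the cirrhosis samples was not tested. Of 31 proliferation markers 0 rose and 2 fell by limma (median -0.19), and Mki67 read 43.3, 52.7 and 103 in control and 30.9, 45 and 41.5 in cirrhosis (-0.52 ± 0.26, adjusted p = 0.23).

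Repair genes are described because DEN alkylates DNA. Of 45 DNA repair genes 11 fell and 2 rose (28.9% called, median -0.09), and 4 of the falls held without cirrhosis replicate 1 or 2 or control replicate 2, and 5 without control replicate 1. Mgmt, the methyltransferase that removes alkyl groups from guanine, read 121, 109 and 120 in control and 183, 217 and 169 in cirrhosis (0.63 ± 0.09, adjusted p = 0.00702). Its level at the hepatitis stage was higher, at 848, 645 and 546, and cirrhosis lay 1.74 below it (log2, adjusted p = 0.0121). The damage sensor of nucleotide excision repair, Xpc, rose by 0.56 ± 0.09. Among falls were the alkyl demethylase Alkbh2 (-0.81 ± 0.15, call lost without cirrhosis replicate 1 or 2), uracil glycosylase Ung (-0.60 ± 0.07), and the base excision proteins Xrcc1 (-0.53 ± 0.05) and Parp1 (-0.52 ± 0.04). With all 12 arrays 3 of the 11 falls were called.

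Other large changes lay outside these processes. Zfp354a, a zinc finger repressor of liver and kidney, read 885, 1275 and 1112 in control and 124, 107 and 86 in cirrhosis (-3.18 ± 0.16, adjusted p = 0.000354). RT1-CE10, a class I histocompatibility gene, went from 1033, 630 and 1692 to 143, 96.6 and 111 (-3.0 ± 0.34, adjusted p = 0.00299), with 97.5, 767 and 945 at the hepatitis stage. Its relatives are close in sequence and polymorphic between rats, so which copy or allele was read is uncertain. The elastase Cela1 went from 592, 766 and 540 to 111, 74.9 and 53.4 (-2.79 ± 0.23, adjusted p = 0.00115), while 11 pancreatic acinar markers, among which it stands, averaged 5.24 to 5.26 in control and 4.98 to 5.00 in cirrhosis. The protease inhibitor A2m, an acute phase protein of the rat, went from 3369, 1232 and 1995 to 411, 537 and 333 (-2.23 ± 0.36, adjusted p = 0.0092). The early response factor Egr1 fell by 1.83 and the costimulatory receptor Tnfrsf9 by 2.14 on the log2 scale. Among rises, Bex1, an adaptor best known from neurons, went from 16.8, 16.2 and 14.9 to 213, 197 and 122 (2.56 ± 0.18, adjusted p = 0.000741), Pcp4, a calmodulin-binding peptide, from 15.5, 17.5 and 17.8 to 164, 211 and 108 (2.38 ± 0.20, adjusted p = 0.00119), and Ddit4l, a relative of Ddit4, from 33.3, 41.6 and 21.7 to 235, 285 and 226 (2.47 ± 0.16, adjusted p = 0.000641). Tmem150c and the ciliary assembly factor Dnaaf1 rose by 2.25 ± 0.16 and 2.21 ± 0.26. Of the 20 largest rises 19 and of the 20 largest falls 20 held whichever array was left out, Cyp2c7 being the exception, and 14 and 17 held with all 12 arrays.

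**Figure D4:**
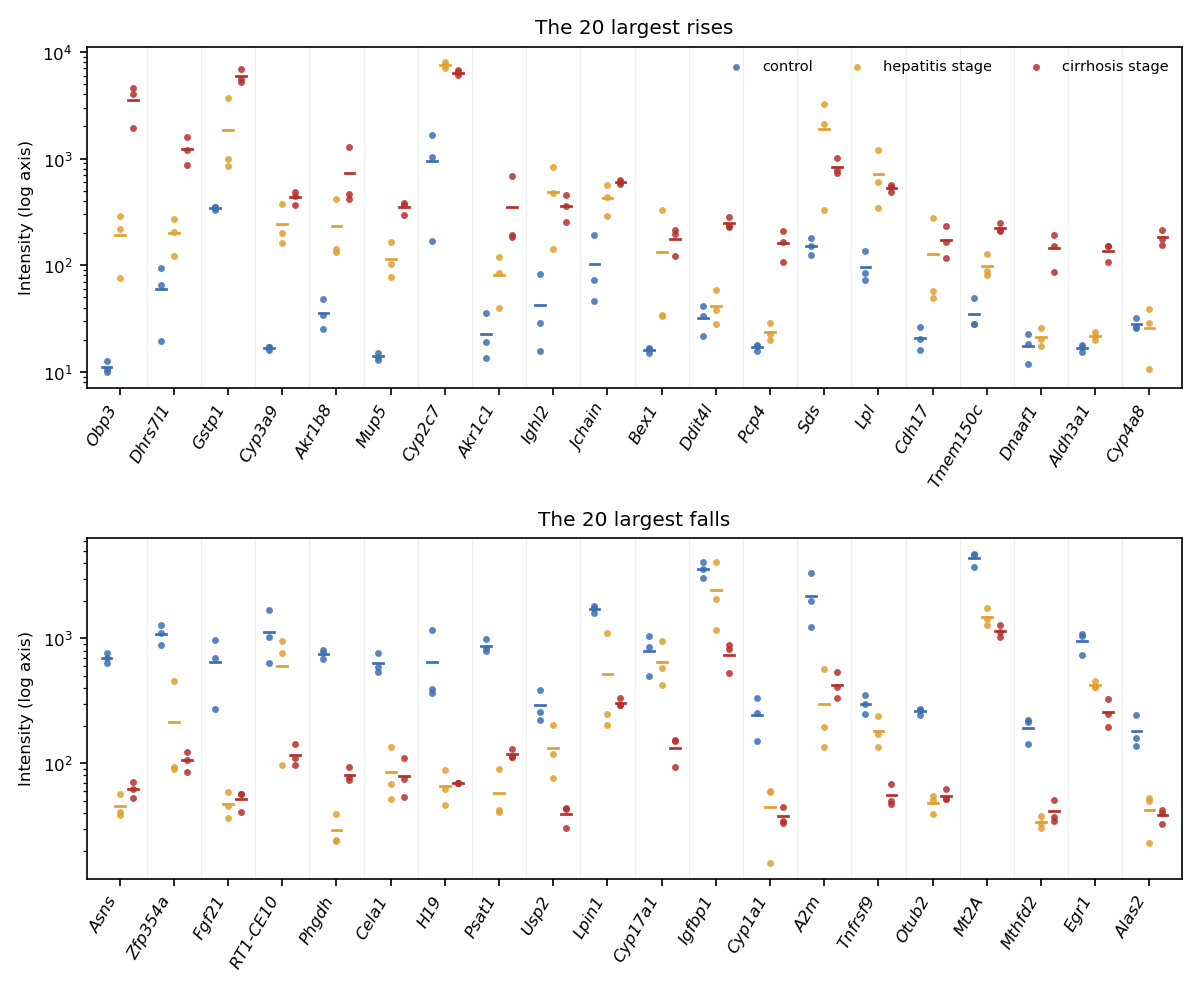
Intensity (log axis) of the 20 genes with the largest rise (top) and the 20 with the largest fall (bottom) in cirrhosis against control, on each control, hepatitis and cirrhosis array, with a short line at each group mean. Obp3 goes from under 16 in control to between 1917 and 4611 in cirrhosis, and Asns from at least 639 to at most 70.8.

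Changes among the 10 brightest called genes stayed under 2-fold. The plasma proteins Ahsg, Fetub, Hrg and Plg fell by 0.20, 0.37, 0.19 and 0.17 on the log2 scale, and the calls of Ahsg, Hrg and Plg were lost on leaving out 5, 5 and 6 of the 6 arrays in turn. The mitochondrial cytochrome oxidase subunit COX1 rose from 4694, 4439 and 4955 to 7597, 7933 and 8614 (0.77 ± 0.07, adjusted p = 0.00135). Carbonic anhydrase Car3 went from 6388, 6128 and 6516 to 5254, 4477 and 4628 (-0.41 ± 0.07, adjusted p = 0.0118). Of 77 oxidative phosphorylation subunits 4 rose and 10 fell (18.2% called), near the 18.9% of all genes.

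Against the hepatitis stage the cirrhosis stage differed in fewer genes: limma called 457 (3.21%), 208 higher and 249 lower in cirrhosis (1.46% and 1.75%). The differences of 28 genes named by the rule that passed that test are given in the closing section. The hepatitis arrays scattered more (median SD per gene 0.1041, against 0.0724 in cirrhosis and 0.0857 in control). Hepatitis replicate 1 stood apart in cholangiocyte markers, with a mean of 6.92 against 5.73 and 5.90.

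**Figure D5:**
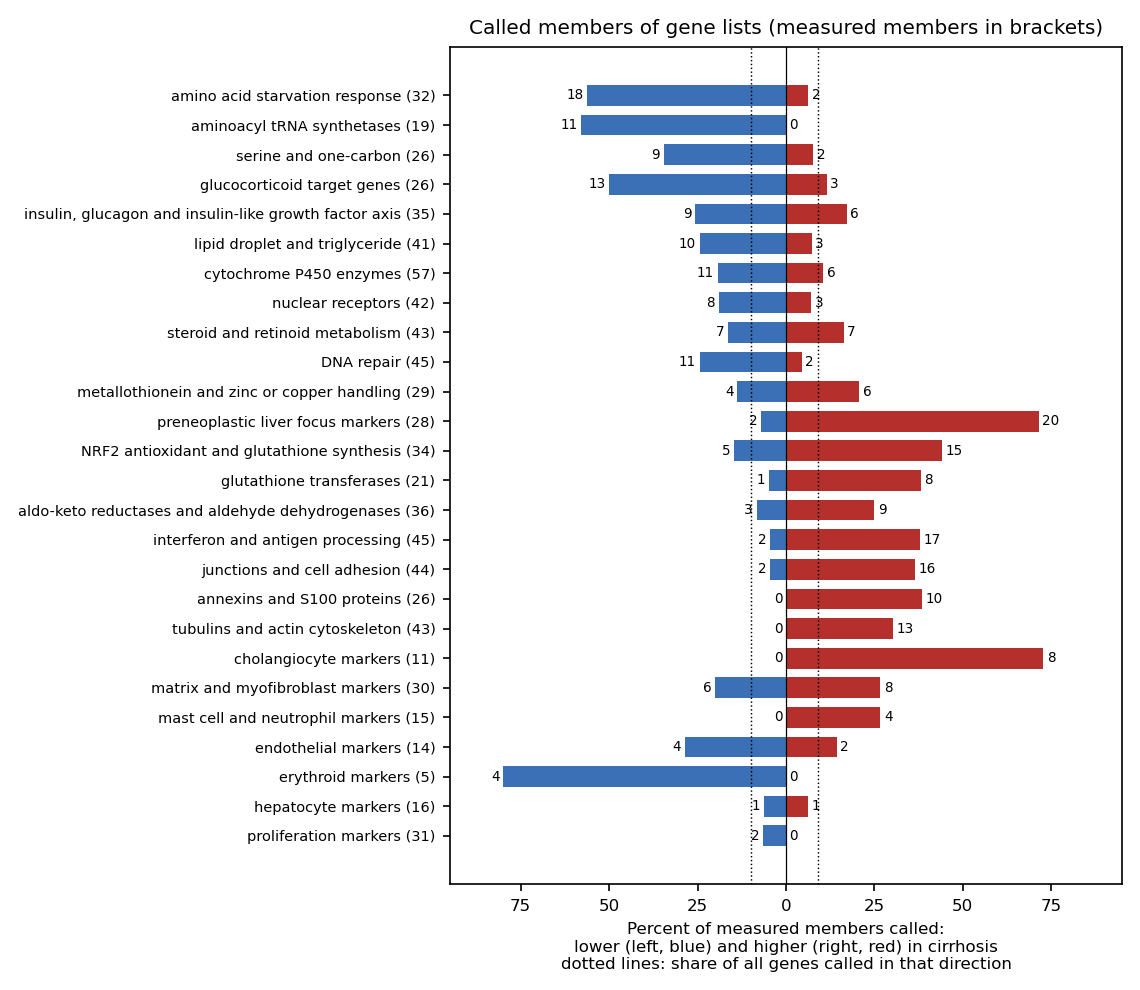
Percent of the measured members of 26 gene lists (number in brackets) called lower (blue, left) or higher (red, right) in cirrhosis than in control, with the number of genes at each bar end. Dotted lines mark the share of all 14217 genes called lower (9.94%) and higher (8.93%), and the starvation list (18 lower, 2 higher) and the preneoplastic focus list (20 higher, 2 lower) show the opposite patterns.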

How the data were processed

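Total RNA from liver was hybridised to Affymetrix Rat Genome 230 2.0 arrays. The deposited values are linear intensities per probe set; MAS5 and RMA are named, without role or version, per the submitters' processing notes. Of 31099 probe sets, 57 were array controls; 20826 were paired with 1 gene in the platform annotation, 436 with several and 9780 with none. One probe set per gene, that of highest mean over the 12 arrays, gave 14217 genes.

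Values were taken as log2(intensity + 16) with no further normalization, so that folds of dim genes are understated. Cirrhosis and control were compared on their 6 arrays with limma 3.58.1 in R 4.3.3 (residual degrees of freedom 4, prior 2.5), adjusted by Benjamini-Hochberg over all genes; called means an adjusted p under 0.05. The hepatitis stage was compared likewise. The code was tested on simulated data. The number of arrays limits the precision.

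Named genes were those called without overlap of arrays: the 20 largest rises, the 20 largest falls, the 10 brightest, and those under 16 on all 3 arrays of a group and over 64 on the other 3. Unnamed loci were passed over. Up to 4 called members of each list were added (6 where over 10 were called), up to 3 of each symbol family, and 13 marker genes whatever their test. Gclm, Mars1, Slc1a4, Slc1a5, Ifit3, Trib3, Gstm4, Oasl, Mx1 and Atf4 were named after their values were seen. The members, the 60 lists and the rule were chosen with earlier results of these data known.

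Promoters, 250 bases before to 50 after each start, came from RefSeq (GRCr8) for 11733 of 14217 genes. Alternatives were other fits, pseudocounts, filters, scalings and probe set rules, an intensity trend, the replicate number as a block, and each array left out.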

Additional observations from a re-analysis of the deposited data

Results flagged for a closer look

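Cirrhosis and the hepatitis stage, 2 time points of the same DEN schedule, differed in 28 of the genes named by the rule (limma, adjusted p under 0.05 over all genes; differences are cirrhosis minus hepatitis on the log2 scale). Without cirrhosis replicate 1, 2 or 3 the number of named genes called was 2, 1 and 4.

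The most lowered was Adam8, a membrane protease of leukocytes, which read 19.2, 19.9 and 22.8 in control, 2524, 1439 and 1586 at the hepatitis stage and 140, 103 and 85.6 in cirrhosis (-3.87, adjusted p = 0.00876). The junction protein Jam3 (-1.58, adjusted p = 0.00543) and the repair protein Mgmt (-1.74, adjusted p = 0.0121) were likewise between control and hepatitis. Cyp17a1 (-2.11), Tnfrsf9 (-1.45), Reln (-0.72), Apom (-0.59), the macrophage protein Cd68 (-0.60) and the retinol carrier Rbp2 (-0.50) were also lower than at the hepatitis stage.

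Obp3 was 4.15 higher than at the hepatitis stage, where it read 288, 217 and 75.4 (adjusted p = 0.0227). Dhrs7l1 was 2.55 higher and Mup5 1.53. Other enzymes above the hepatitis stage were Cyp4a8 (2.30), Aldh3a1 (2.0), Akr7a3 (1.89), Ptgr1 (1.20) and Phgdh (1.12). Ddit4l (2.23), Pcp4 (2.12), Dnaaf1 (2.05), Tmem150c (1.07), Gckr (1.07), Cldn2 (0.66) and Xpc (0.39) were higher too. Among interferon-induced genes Mx2 was 1.44, Usp18 1.24, Oas1a 0.99 and Isg15 0.65 higher.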

How the results depend on the processing

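Among the 158 named genes and the counts followed under 16 alternatives, no called direction reversed. With all 12 arrays in 1 fit, 474 genes were called (219 higher, 255 lower; 64 and 66 of at least 2-fold), and with the 9 arrays of control, hepatitis and cirrhosis 1748 (825 and 923). Leaving out 1 array gave 1434 to 3277 genes, 669 to 1513 higher and 730 to 1764 lower. With a pseudocount of 1, 195 genes were at least 2-fold higher, and with 64, 68 higher and 57 lower. The number of named genes called against the hepatitis stage, 28, became 15 with all 12 arrays, 1 with the replicate block, and 1 to 42 with an array left out. Deviations from the group means of same-numbered control and cirrhosis arrays correlated at 0.031, 0.069 and 0.079. Those of differently numbered arrays correlated at -0.084 to 0.031. All these values are small, and the number was not taken as pairing. The replicate block gave 2456 calls (1106 higher, 1350 lower). Of 150 called genes with alternatives computed, 122 held whichever array was left out and 68 in every alternative. The cause of these shifts was not tested. Without control replicate 3 Cd68 is called, and Nr1i3, Plg, Fcer1a and Pecam1 are not. Genes near 16 are near the low end of the signal.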

Other observations

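Of the 226 genes called at least 2-fold, 125 stood in none of the 60 lists; those below were chosen after their values were seen. Several enzymes and transporters of sugar and lipid metabolism were lower. Pfkfb1, which sets the level of the glycolytic activator fructose 2,6-bisphosphate, read 1275, 1276 and 1268 in control and 375, 435 and 406 in cirrhosis (-1.62 ± 0.06, log2 and SE, limma adjusted p = 0.000131). The glucose 6-phosphate transporter Slc37a4 went from 2465, 2463 and 2258 to 1070, 999 and 1010 (-1.21 ± 0.06, adjusted p = 0.000267). Pyruvate kinase Pklr (-1.27), the fructose transporter Slc2a5 (-1.08), the desaturase Fads2 (-1.16) and the elongase Elovl6 (-1.04) were lower as well. Not all genes of fat synthesis were called, among them Acly (-0.22, adjusted p = 0.205) and Acss2 (-0.28, adjusted p = 0.29). Por, the electron donor of microsomal P450 enzymes (-1.59), and the sterol exporter Abcg5 (-1.70) were also called lower.

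Class I histocompatibility genes went both ways. Beside the fall of RT1-CE10, RT1-A read 27.1, 72.7 and 65.8 and then 156, 271 and 119 (1.47 ± 0.36, adjusted p = 0.0354). RT1-N2 was higher as well (1.43 ± 0.24, adjusted p = 0.0106), also against the hepatitis stage (1.57, adjusted p = 0.0327), with the same doubt about copies. Among rises outside the lists were the chemokine Ccl21 (1.98 ± 0.15), the scavenger-domain protein Dmbt1 (1.92 ± 0.20), the transcription factor Sox4 (1.62 ± 0.14) and macrophage elastase Mmp12 (1.39 ± 0.08).

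A list of clock genes and their outputs was added after the data were seen. Of 18 measured 8 fell and 2 rose (55.6% called against 18.9% of all genes, median -0.42). Of the 8 falls 5 held without cirrhosis replicate 2 and 2 with all 12 arrays. The deubiquitinase Usp2 went from 223, 259 and 390 to 43.1, 44.3 and 30.4 (-2.44 ± 0.21, adjusted p = 0.00116), and Per3 from 69.1, 72.4 and 118 to 30, 11.5 and 21.9 (-1.46 ± 0.24, adjusted p = 0.00945), while Clock rose by 0.79. The labels state no hour of sacrifice, and its part was not tested.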
